A study of Rattus norvegicus with 44 samples.

Results

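The 43 genes described here are interferon-stimulated genes, taken from a list of gene names drawn up with earlier results of these data known. They were followed in 2 parts of the rat hippocampus, CA1 and the dentate gyrus (DG). In CA1, 41 of the 43 had a row and 40 of the 14915 genes tested were on the list. In DG, 42 had a row and 40 of the 14904 genes tested were on the list, and 39 were tested in both regions. Mx1 in CA1 and Ifit1 in both regions were not analysed here. Cxcl10 fell below the filter on low values in both regions, and Gbp4 did so in DG.

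Polyadenylated RNA came from 22 male rats, and 1 hippocampus of each was split into a CA1 and a DG sample, which gave 44 libraries. Young rats (5 to 7 months) received saline (young vehicle, n = 8) or lipopolysaccharide (LPS), a bacterial endotoxin, at 1 mg per kg (young LPS, n = 8). Aged rats (14 to 16 months) received saline (aged vehicle, n = 6). All rats had 7 weekly intraperitoneal injections. Tissue dates from 48 hours beyond the final one, so levels describe that time and not the hours following a dose. The series compared LPS with vehicle in young rats, aged with young vehicle rats, and young LPS with aged vehicle rats.

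Type I interferons are secreted when a cell senses foreign nucleic acid or endotoxin, and they act on neighbouring cells through a receptor on the cell surface. The receptor's kinases phosphorylate STAT proteins, which join Irf9 and bind a short element in the promoters of responding genes. The products of those genes sense RNA, block translation and viral entry, tag proteins with Isg15 and feed back on the pathway. In the brain, microglia, astrocytes, vessels and the choroid plexus can all respond, and such genes are often discussed in ageing.

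The element that links these genes is shown first. Its core was searched as GAAANNGAAA on both strands, overlapping matches included, in 300-base windows from 250 bases before to 50 bases after each annotated start. Windows came from RefSeq (build GRCr8), which held 34 of the 43 genes. Ddx58, Ifitm1, Mx2, Isg15, Ifit1, Ifit2, Dhx58, Usp18 and Adar had no entry. The core was present in 22 of the 34 windows, or 64.7%, against 3.77% of all 27457 windows (1034 of them). A match describes the letters only. The stretches below belong to genes whose levels lead the results that follow. Each is 60 bases, written 5′ to 3′ on the gene's own strand, with the core in capitals. The core reads as TTTCNNTTTC where it lies on the opposite strand. The first 4 carry it on the gene's own strand within 80 bases of the start.
Oas1a (chr12:41330406-41330465, + strand): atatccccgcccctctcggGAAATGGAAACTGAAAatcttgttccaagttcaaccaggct
Irgm (chr10:33742578-33742637, - strand): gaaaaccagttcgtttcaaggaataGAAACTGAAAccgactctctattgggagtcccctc
Eif2ak2 (chr6:21941113-21941172, + strand): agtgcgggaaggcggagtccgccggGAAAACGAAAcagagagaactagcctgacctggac
Ifih1 (chr3:67683993-67684052, - strand): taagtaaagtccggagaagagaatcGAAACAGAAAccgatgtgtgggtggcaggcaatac
Igtp (chr10:42874919-42874978, + strand): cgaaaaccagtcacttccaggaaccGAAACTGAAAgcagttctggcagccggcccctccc
Bst2 (chr16:18255058-18255117, - strand): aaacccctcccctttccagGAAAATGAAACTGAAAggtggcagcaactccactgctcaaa
Ifit3 (chr1:241527257-241527316, + strand): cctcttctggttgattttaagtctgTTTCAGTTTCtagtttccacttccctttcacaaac
Gbp2 (chr2:234005671-234005730, + strand): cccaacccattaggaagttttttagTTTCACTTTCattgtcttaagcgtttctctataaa
Ifi44 (chr2:243303832-243303891, - strand): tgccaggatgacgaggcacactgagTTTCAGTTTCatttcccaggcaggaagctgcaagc
Irf7 (chr1:205800058-205800117, - strand): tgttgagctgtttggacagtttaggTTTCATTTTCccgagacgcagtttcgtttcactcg
In Oas1a and Bst2 the capitals run through a pair of overlapping matches. The core began 16 bases before the start in Eif2ak2, 26 in Ifi44, 31 in Gbp2, 34 in Irgm, 44 in Ifit3, 59 in Ifih1 and 69 in Irf7. Ifi47, which like Gbp2 and Irgm was highest in CA1 of rat 2420 (below), had no match in its window.

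**Figure D1:**
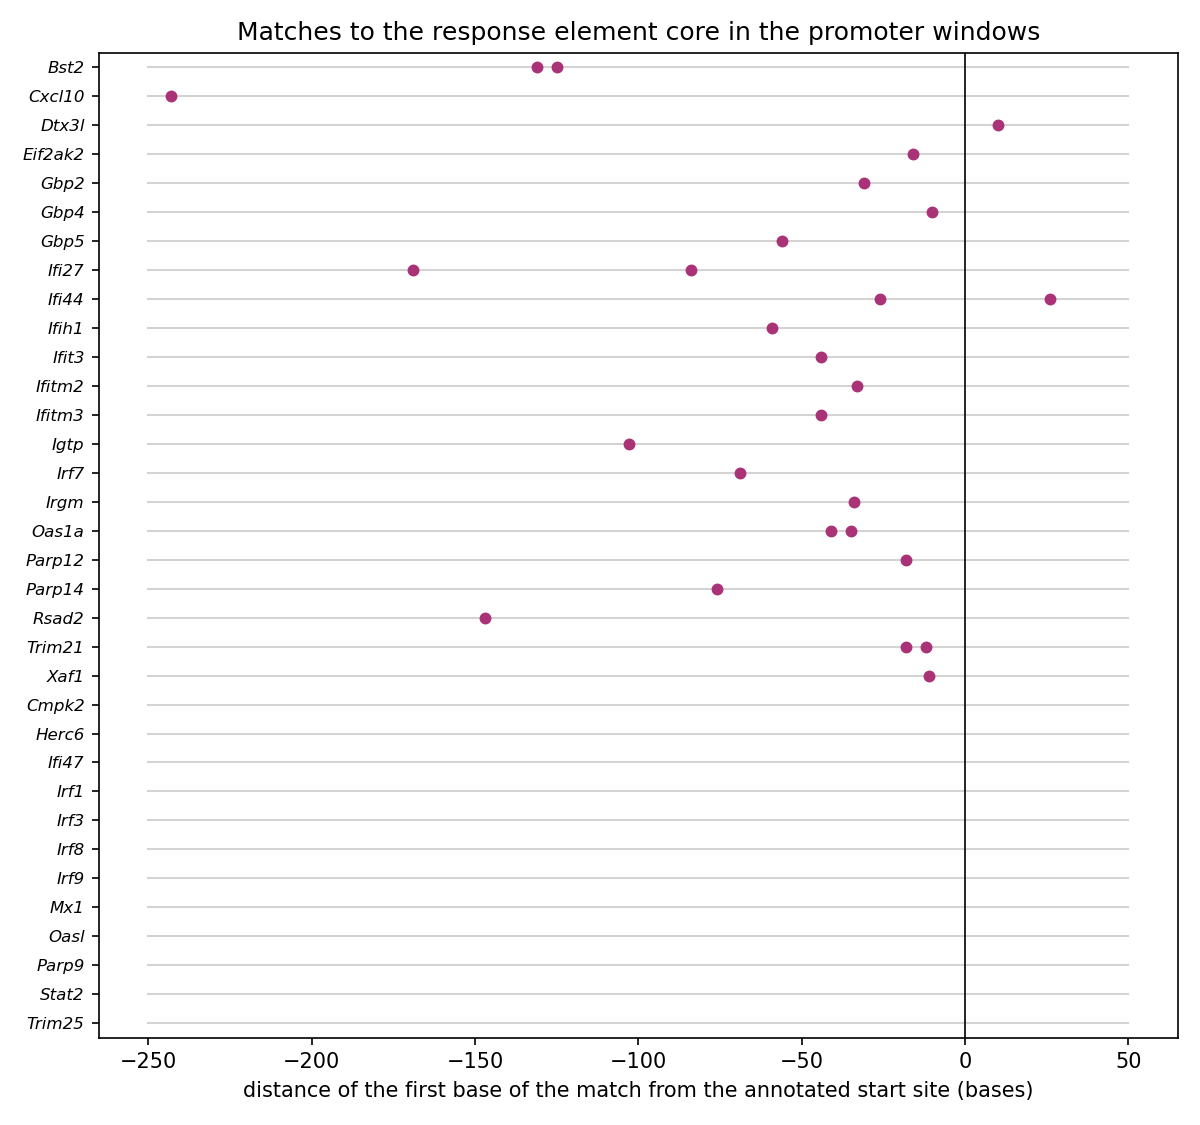
Position of each match to the core in the promoter windows of the 34 genes with an entry. The horizontal axis is the distance in bases from the annotated start site, each grey line is 1 gene's window, and a dot is the first base of a match; 22 genes have at least 1 dot and 12 have none.

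Each library held 12292346 to 18749666 reads in CA1 and 12130182 to 23519791 in DG. Values are the authors' normalized reads, and each region's table was scaled separately, so levels are compared only within a region. Marker genes of CA1 pyramidal and of dentate granule cells were detected in their regions, and also in the other region. In DG the summed CA1 pyramidal markers ran from 748 (a young LPS library) to 12804 (an aged one). Their DG medians were 3094.5 in young vehicle, 4037 in young LPS and 7923 in aged vehicle. In CA1 the summed granule markers ran from 879 to 5891, both in young LPS. The part of such carry-over in the results was not tested. In this bulk tissue, fewer cells of a type and less RNA per cell cannot be told apart. Some libraries stand apart over all genes: the CA1 library of aged rat 2532 was the highest of 22 for 30.4% of all tested genes, and the DG library of young vehicle rat 2526 for 15%. For genes of the naming rule, LPS and age estimates against young vehicle are followed by the estimate without rats 2526, 2420 and 2532 in CA1, or without 2526, 2572 and 2532 in DG, called here the reduced set. Those libraries had the highest means of this same list in their region and were chosen after seeing the data. The reduced set is therefore a description and no independent check. In DG, rats 2526 and 2572 are young vehicle, so leaving them out by itself tends to raise estimates against that group.

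The libraries with the highest levels of the list were not those of rats given LPS. For each library, the log2 level of each gene was set against that gene's mean over the 22 libraries and averaged over the 40 genes. In CA1, this mean was 0.60 in young vehicle rat 2526, 0.51 in aged rat 2420 and 0.37 in aged rat 2532. The next young vehicle library after rat 2526 stood at 0.03. In DG, rat 2526 stood at 0.98, aged rat 2532 at 0.37 and young vehicle rat 2572 at 0.31. Rat 2526 thus had the highest mean of the list in both regions of its hippocampus.

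**Figure D2:**
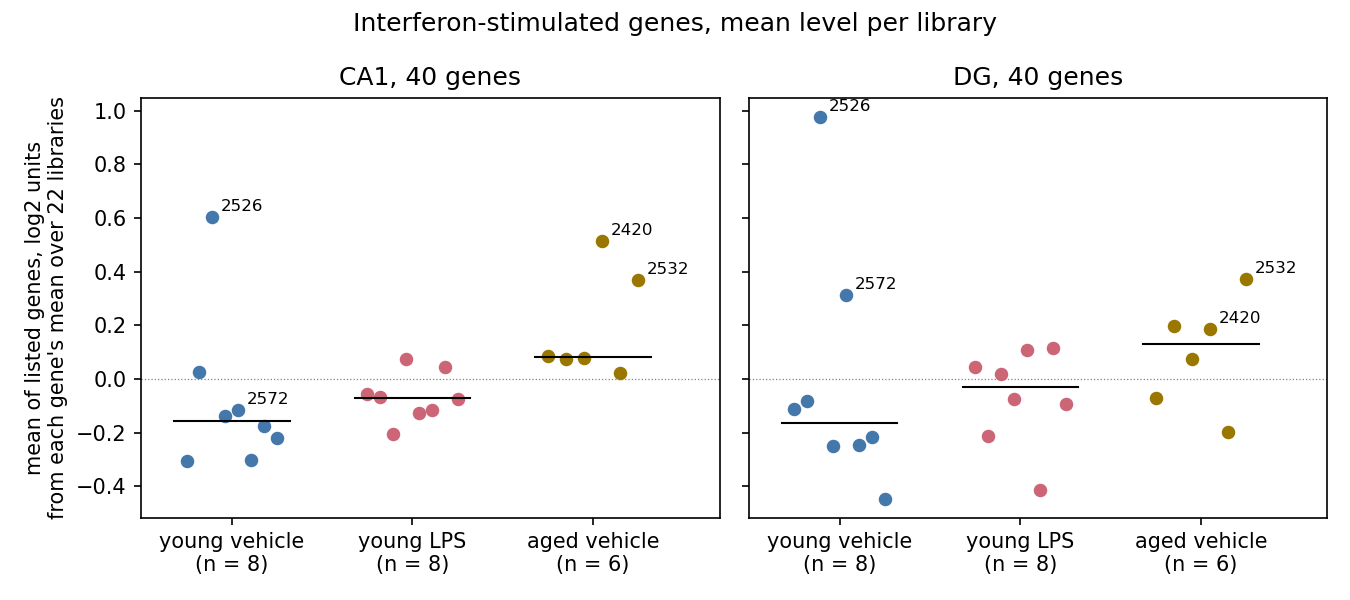
Mean log2 level of the 40 listed genes tested in each region, relative to each gene's mean over 22 libraries, by group. Each point is 1 library, the bar is the group's median, and 4 rats are named; rat 2526 is the highest point in both panels, at 0.60 in CA1 and 0.98 in DG.

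Rat 2526 was the highest of all 22 libraries for 12 of the 40 genes in CA1 (30%), where it was the highest for 2.82% of all tested genes. In DG it was the highest for 18 of 40 (45%), against 15% of all genes. Ifit3, Isg15, Mx2, Oas1a, Rsad2 and Usp18 were highest in this rat in both regions, and this rat was among the 3 highest libraries for 17 genes in both regions. These shares are a description and were not tested.

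Isg15, the ubiquitin-like tag joined to proteins after interferon, ran from 13.2 to 141 normalized reads in young vehicle CA1, with a median of 21.3. It ran from 9.88 to 40.6 (median 34.3) in young LPS and from 25.2 to 77.3 (median 30.5) in aged vehicle. The top value of 141 belonged to rat 2526; the next young vehicle library stood at 60.8 and aged rat 2532 at 77.3. In DG, the same rat had 233 normalized reads of Isg15, and the next highest library of any group had 43.5. The ratio of rat 2526 to the median of the other 21 libraries was 9.21 in DG and 4.67 in CA1.

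Other genes were high in this rat too. Oas1a, which makes the second messenger that activates RNase L, stood at 64.6 in CA1 and 85.3 in DG of rat 2526. The next highest library stood at 40.3 in CA1 and 33.5 in DG. Ifit3, which helps bind viral RNA, stood at 53.2 in CA1 and 66.7 in DG, where the next library had 28.6. Usp18, the protease that removes Isg15 and damps the receptor, stood at 78.5 and 87.5. Rsad2 (viperin), an antiviral enzyme, stood at 98.2 and 80.9. Mx1, an antiviral GTPase, was 185 in DG of this rat, and the next library had 64.2. Oasl, a relative of Oas1a, was 54.7 in DG and the next library had 24.5, while in CA1 this rat ranked 6 of 22. The 18 genes led by this rat in DG also held Irf7, the GTPases Gbp5, Ifi47, Igtp and Irgm, and Xaf1. The 12 CA1 genes led by this rat also held the RNA sensor Ddx58 (RIG-I, 82.6) and the E3 ligase Trim25 that activates it (101.4).

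Markers of other tissues were high in some of these libraries and not in others. The 9 choroid plexus markers summed to 9405 normalized reads in CA1 of rat 2526, where the young vehicle median was 103. They summed to at most 982 in young LPS (rat 2404) and 950 in aged vehicle (rat 2420). As a mean log2 score, these markers stood at 4.22, 1.38 and 1.14 in CA1 of rats 2526, 2420 and 2532. Young LPS rat 2404 stood at 1.22, with a mean of the listed genes of -0.065. In DG only 3 of the 9 markers had a row, and rat 2526 stood at -0.19 on the mean log2 scale of those markers. The meningeal fibroblast markers were above their means in this rat in both regions, by 1.37 in CA1 and 1.71 in DG. In CA1 they stood at -0.17 in rat 2420 and 0.17 in rat 2532. Blood markers summed to 16952 in DG of rat 2526, where the young vehicle median was 1933, and stood at -0.28 on the mean log2 scale in CA1. The perivascular macrophage score of rat 2526 was 0.75 in CA1 and 0.66 in DG, and its microglial score -0.09 and 0.37. In CA1 both scores were highest in young vehicle rat 2572, at 1.29 and 0.63, with a mean of the listed genes of -0.12. The part of these cells in the result was not tested.

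The aged rats 2420 and 2532 were high for other members. In CA1 of rat 2420, 8 of 40 genes were at their highest (20%, against 1.94% of all genes). These 8 included the interferon-inducible GTPases, which attack the vacuoles of intracellular pathogens: Gbp2 at 170, Ifi47 at 139, Irgm at 158 and Igtp at 146. Averaged over 6 GTPases without the Mx genes, this library stood 1.09 above the gene means in log2 units, and rat 2532 stood at 0.84. The other genes led by rat 2420 included Bst2 (tetherin, 156), Irf8 (291) and Parp14 (258). In DG of rat 2420, Gbp2 and Ifi47 did not stand apart from the other aged libraries in the plot of levels.

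In CA1 of rat 2532, 11 of 40 genes were at their highest (27.5%), a share near the 30.4% of all genes for which this library was highest. Ifi44 stood at 225, the nucleotide kinase Cmpk2 at 786, the RNA sensor Ifih1 (MDA5) at 104 and the translation-blocking kinase Eif2ak2 (PKR) at 512. The same library had the lowest aged values of Stat2 (443), Trim25 (26.3), Bst2 (17.5) and Ifitm1 (0). So it was high for some members and low for others.

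**Figure D3:**
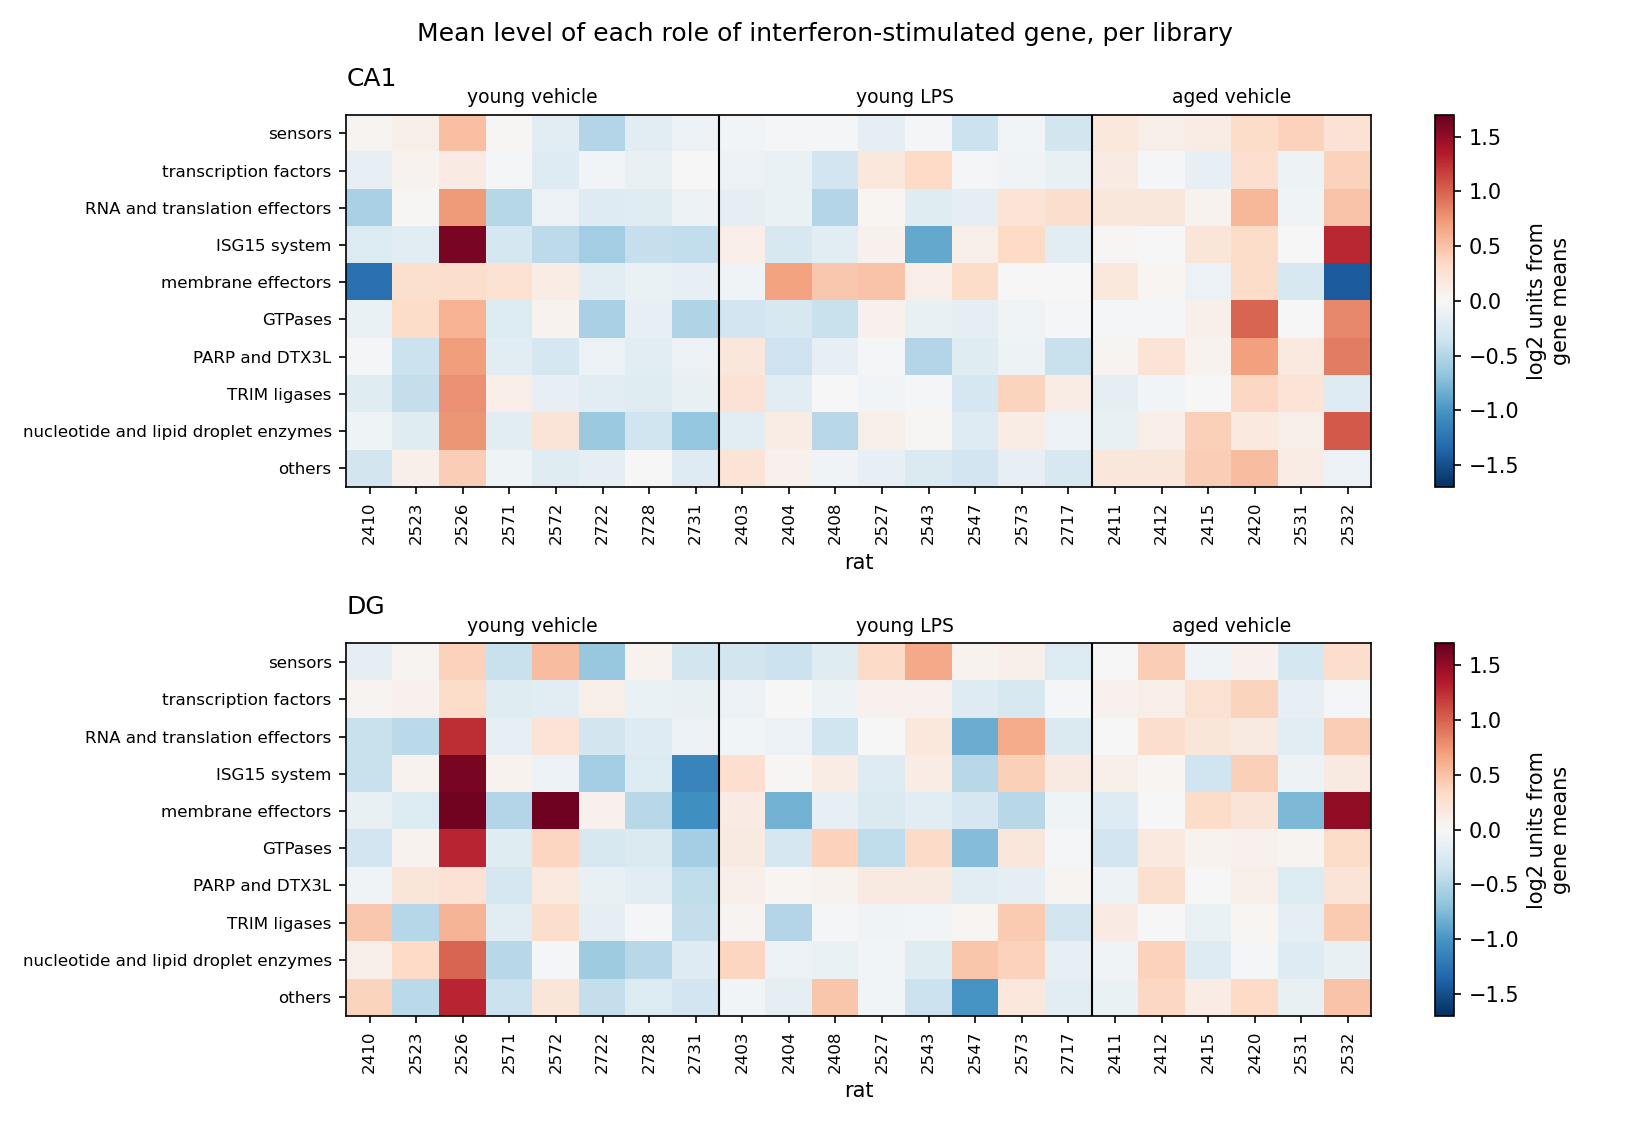
Mean log2 level of each role of gene in each library, relative to each gene's mean over 22 libraries, for CA1 (top) and DG (bottom). Columns are rats in the order of their groups and rows are roles; the column of rat 2526 is high for the ISG15 system in both regions, at 1.62 in each.

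**Figure D4:**
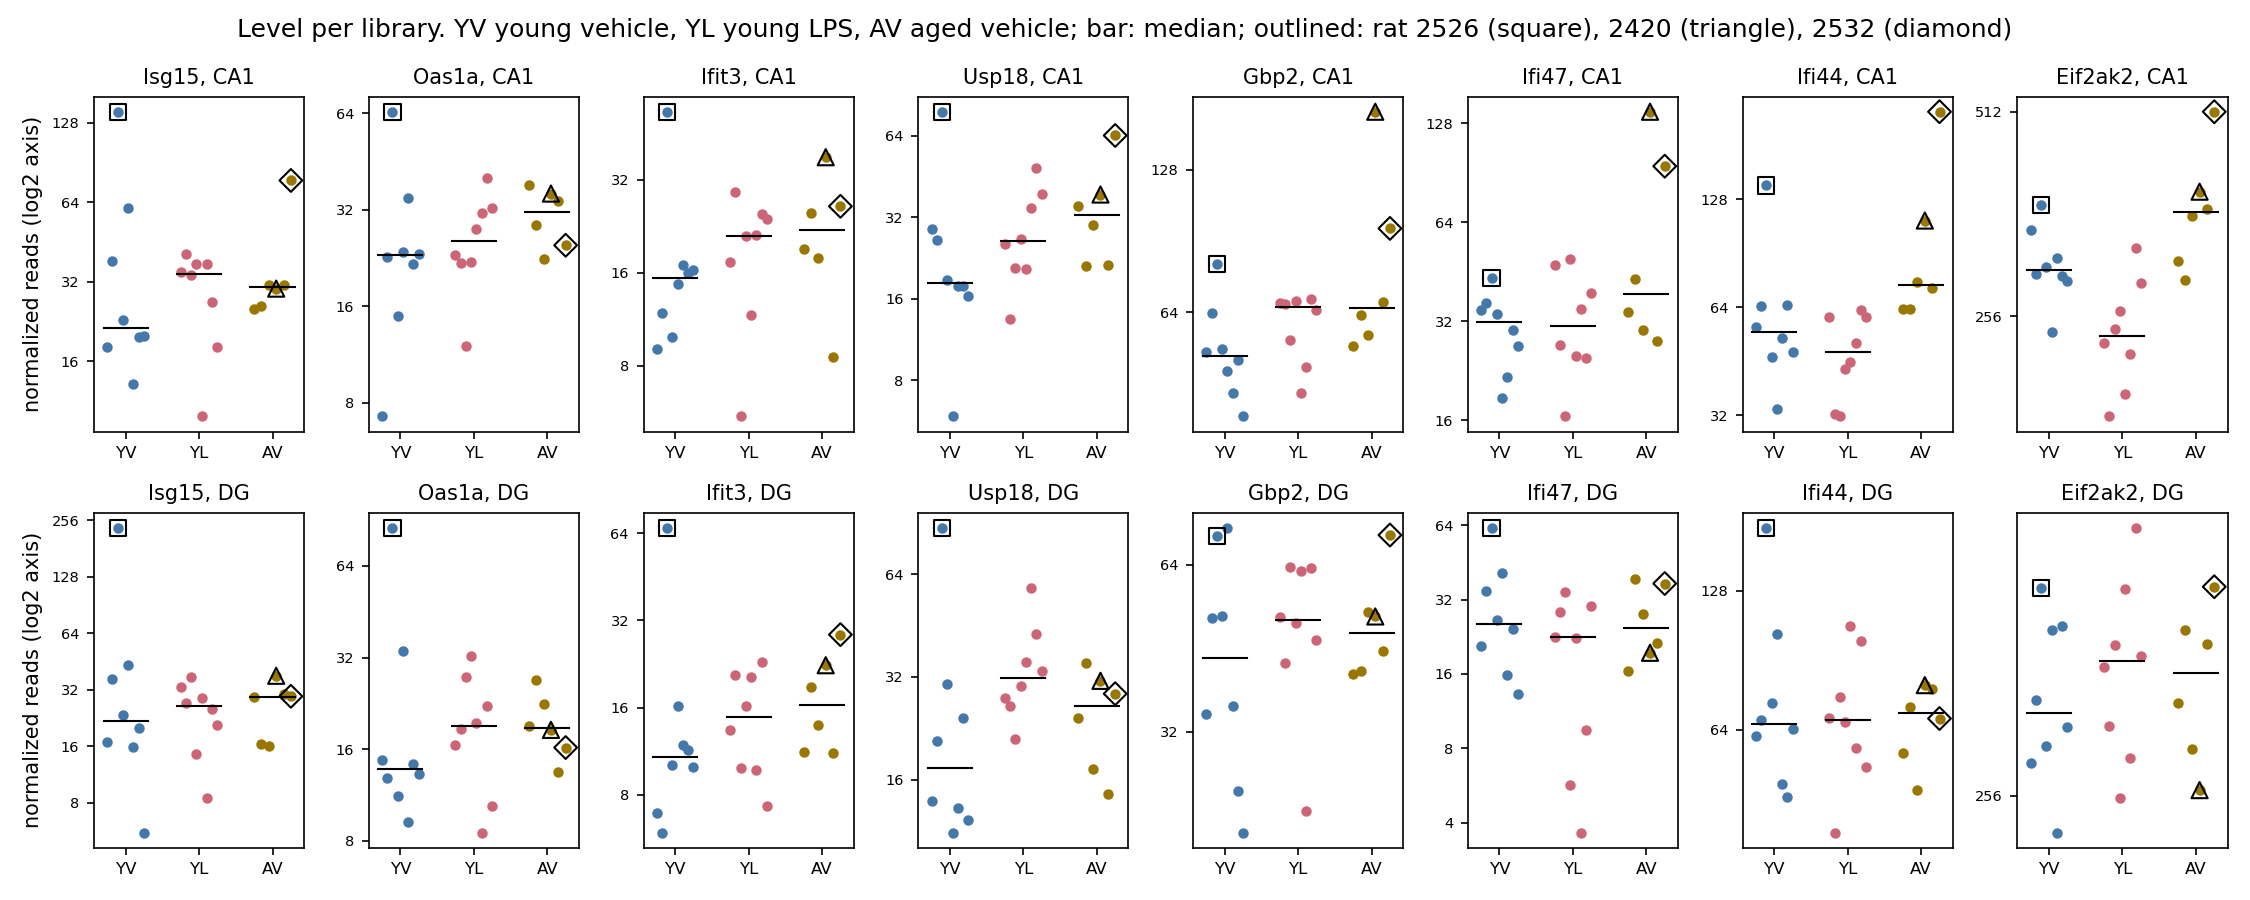
Normalized reads of 8 genes in every library, on log2 axes, with CA1 above and DG below. Points are libraries, bars are group medians, and outlines mark rats 2526, 2420 and 2532; Isg15, Oas1a, Ifit3 and Usp18 are highest in rat 2526 in both regions, while Gbp2 and Ifi47 are highest in CA1 in rat 2420.

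In CA1 of aged rats most of the list leaned upward, but no gene passed the test against young vehicle. Of 40 genes, 36 had a positive log2 change, with a median of 0.29, where 50.4% of all tested genes were positive with a median of 0.003. The 40 changes ran from -1.11 to 0.79. None of the 40 had a limma adjusted p below 0.05 (0.0134% of all genes did), and the smallest was 0.393. At an unadjusted p below 0.05, 10 of 40 were higher, against 6.82% of all genes. edgeR and DESeq2 on recovered reads called 0 of the 40. Without rats 2526, 2420 and 2532 the median was 0.23 and 34 of 40 were positive, with no share over all genes computed. Leaving out 1 library gave medians from 0.24 (without 2420) to 0.39 (without 2526). Cell type markers differed with age in both directions in the same libraries, none of them past the test. Values were positive for 7 of 7 microglial markers (median 0.15) and 2 of 3 perivascular macrophage markers (median 0.54). So were 3 of 3 blood markers (median 0.45) and 4 of 5 astrocyte markers (median 0.135). Fewer were positive for endothelium (1 of 6, median -0.20), choroid plexus (1 of 5, -0.12) and meningeal fibroblasts (2 of 7, -0.15). The same held for dentate granule (1 of 4, -0.37), oligodendrocyte (2 of 5, -0.10) and CA1 pyramidal markers (1 of 3, -0.05). Their part in the lean was not tested.

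By role, the aged CA1 change was positive for all 3 sensors and all 7 GTPases tested, for all 4 genes of the PARP and Dtx3l group and for all 3 of the ISG15 system. The RNA and translation effectors had 6 of 6 positive values, with a median of 0.33. Transcription factors had a median of 0.10 with 5 of 6 positive. Among them Stat2 and Irf9, which form the complex that binds the element, had values of -0.06 and 0.03 (0.07 and -0.09 in the reduced set).

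Ddx58 ran from 30.4 to 82.6 normalized reads (median 41.5) in young vehicle CA1 and from 52.6 to 72.9 (median 57.4) in aged vehicle. Rat 2526 was the only young vehicle library above the lowest aged one. The log2 change was 0.47 (SE 0.18, adjusted p = 0.393). In the reduced set it was 0.56.
Parp9, which works with Dtx3l in chromatin ADP-ribosylation and interferon signalling, ran from 81.9 to 189 (median 98.8) in young vehicle and from 115 to 249.4 (median 136) in aged vehicle. The change was 0.57 (SE 0.20, adjusted p = 0.393) and 0.39 in the reduced set. Parp14 ran from 96.9 to 205 and from 130 to 258, a change of 0.37 (SE 0.16) and 0.21 in the reduced set.
The largest positive estimates were Oasl at 0.79, Ifi47 at 0.75, Ifi44 at 0.63 and Usp18 at 0.61. In the reduced set they were 0.50, 0.24, 0.41 and 0.57. For Ifi47 the aged values ran from 27.8 to 139 (median 38.7). Gbp2 stood at 0.55 and, in the reduced set, at 0.28. Bst2 stood at 0.49 (reduced set 0.67), and at 0.90 without rats 2526 and 2532. Rsad2 stood at 0.59 (reduced set 0.69). With library weights limma called 3 of the 40 and 303 of all genes, among them Bst2 (0.90, adjusted p = 0.0307) and Rsad2 (0.94, adjusted p = 0.0411). Oas1a, Ifit3, Irf7, Ifih1, Gbp4, Eif2ak2 and Isg15 lay between 0.14 and 0.57, and between 0.14 and 0.61 in the reduced set. Gbp4 passed the filter with 8 CA1 libraries at 10 or more, most of them aged. The filter thus kept it through the aged group, and its positive value adds no support to the lean or to the GTPase count.
Ifitm1, which blocks viral entry at the membrane, had the lowest estimate. It ran from 1.82 to 13.9 (median 9.12) in young vehicle and from 0 to 6.04 (median 4.26) in aged vehicle CA1. The change was -1.11 (SE 0.41, adjusted p = 0.393), at levels of a few reads, and -0.69 in the reduced set. Its 7 CA1 libraries at 10 or more were all young, so the filter kept it through the young groups and this estimate adds no support. The other membrane genes Ifitm2 and Ifitm3 stood at 0.01 and 0.15 (reduced set 0.32 and 0.14). Irgm stood at 0.12 and Trim25 at -0.06 (reduced set -0.02 and 0.25).

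With all libraries in the fit, repeated LPS left the list in young CA1 without a common direction, a split that shifted without rat 2526 (below). Of 40 genes, 20 had positive and 20 negative values, with a median of -0.004 beside 0.012 over all genes, of which 52.2% were positive, and the values ran from -0.69 to 0.65. No gene of the list passed the limma test (0% of all tested genes did), and edgeR and DESeq2 called 0 of the 40. By limma, 2 of 40 had an unadjusted p below 0.05, against 6.87% of all genes. Those were Bst2 and Eif2ak2, with estimates of opposite sign.

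Bst2, which tethers budding virus to the cell, ran from 22.7 to 61.5 (median 47.0) in young vehicle, from 55.9 to 119 (median 63.2) in young LPS and from 17.5 to 156 (median 73.0) in aged vehicle. The LPS values overlapped those of vehicle, with a log2 change of 0.65 (SE 0.29, adjusted p = 0.654) and 0.70 in the reduced set. Eif2ak2 ran from 242 to 373 (median 299) in young vehicle, from 182 to 322 (median 239) in young LPS and from 289 to 512 (median 364) in aged vehicle. Its LPS change was -0.34 (SE 0.13, adjusted p = 0.654) and -0.30 in the reduced set. Gbp4, at a few reads, had the lowest estimate, -0.69 (reduced set -0.51). Oasl stood at 0.40, Usp18 at 0.34 and Ifitm3 at 0.29 (reduced set 0.52, 0.60 and 0.38), while Ifi44 stood at -0.31 (reduced set -0.13). Isg15 had a change of -0.14, and of 0.17 in the reduced set. Without rat 2526 alone, 30 of 40 genes were positive and the median was 0.07. The share of all genes that was positive was not computed for that fit.

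Young LPS and aged vehicle CA1 could be set against each other directly, and here 3 of the 40 genes passed the test. That share lies near the background, since 8.73% of all tested genes passed. Of the 40, 32 were lower in young LPS, with a median of -0.28 beside 0.02 over all genes. At an unadjusted p below 0.05, 14 of 40 were lower, against 18.5% of all genes. edgeR called 8 of the 40, and 14.4% of all genes. DESeq2 called 7 of the 40, and 22.1% of all genes. limma called 0 when any 1 of these 15 libraries was left out: aged 2415, 2420, 2531 or 2532, young LPS 2404, 2408, 2527, 2543 or 2717, or young vehicle 2410, 2526, 2571, 2722, 2728 or 2731. The vehicle libraries enter only through the shared estimate of spread. Of all genes it then called 0 to 2. It called 5 (of 2243 over all genes) without LPS 2573, 6 (of 2626) without LPS 2403, 6 (of 1898) without vehicle 2523, and 8 (of 3399) without aged 2411.
Ifi44, an interferon-induced cytoplasmic protein, ran from 31.7 to 63.0 (median 47.9) in young LPS and from 63.2 to 225 (median 73.9) in aged vehicle. The groups did not overlap, as for 0.838% of all tested genes, though the nearest values nearly met. It was lower in young LPS by a log2 change of -0.94 (SE 0.28, adjusted p = 0.049), and by -0.68 (adjusted p = 0.132) without rat 2532. Eif2ak2 was lower by -0.60 (SE 0.14, adjusted p = 0.049), and by -0.50 (adjusted p = 0.119) without that rat. Ifitm1 was higher in young LPS by 1.39 (SE 0.41, adjusted p = 0.049), and by 0.98 (adjusted p = 0.131) without it. Its values were 5.72 to 15.6 in young LPS and 0 to 6.04 in aged vehicle. Ifitm1 passed the filter with 7 libraries at 10 or more, none of them aged, so the filter kept it through the young groups and this call adds no support.

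**Figure D5:**
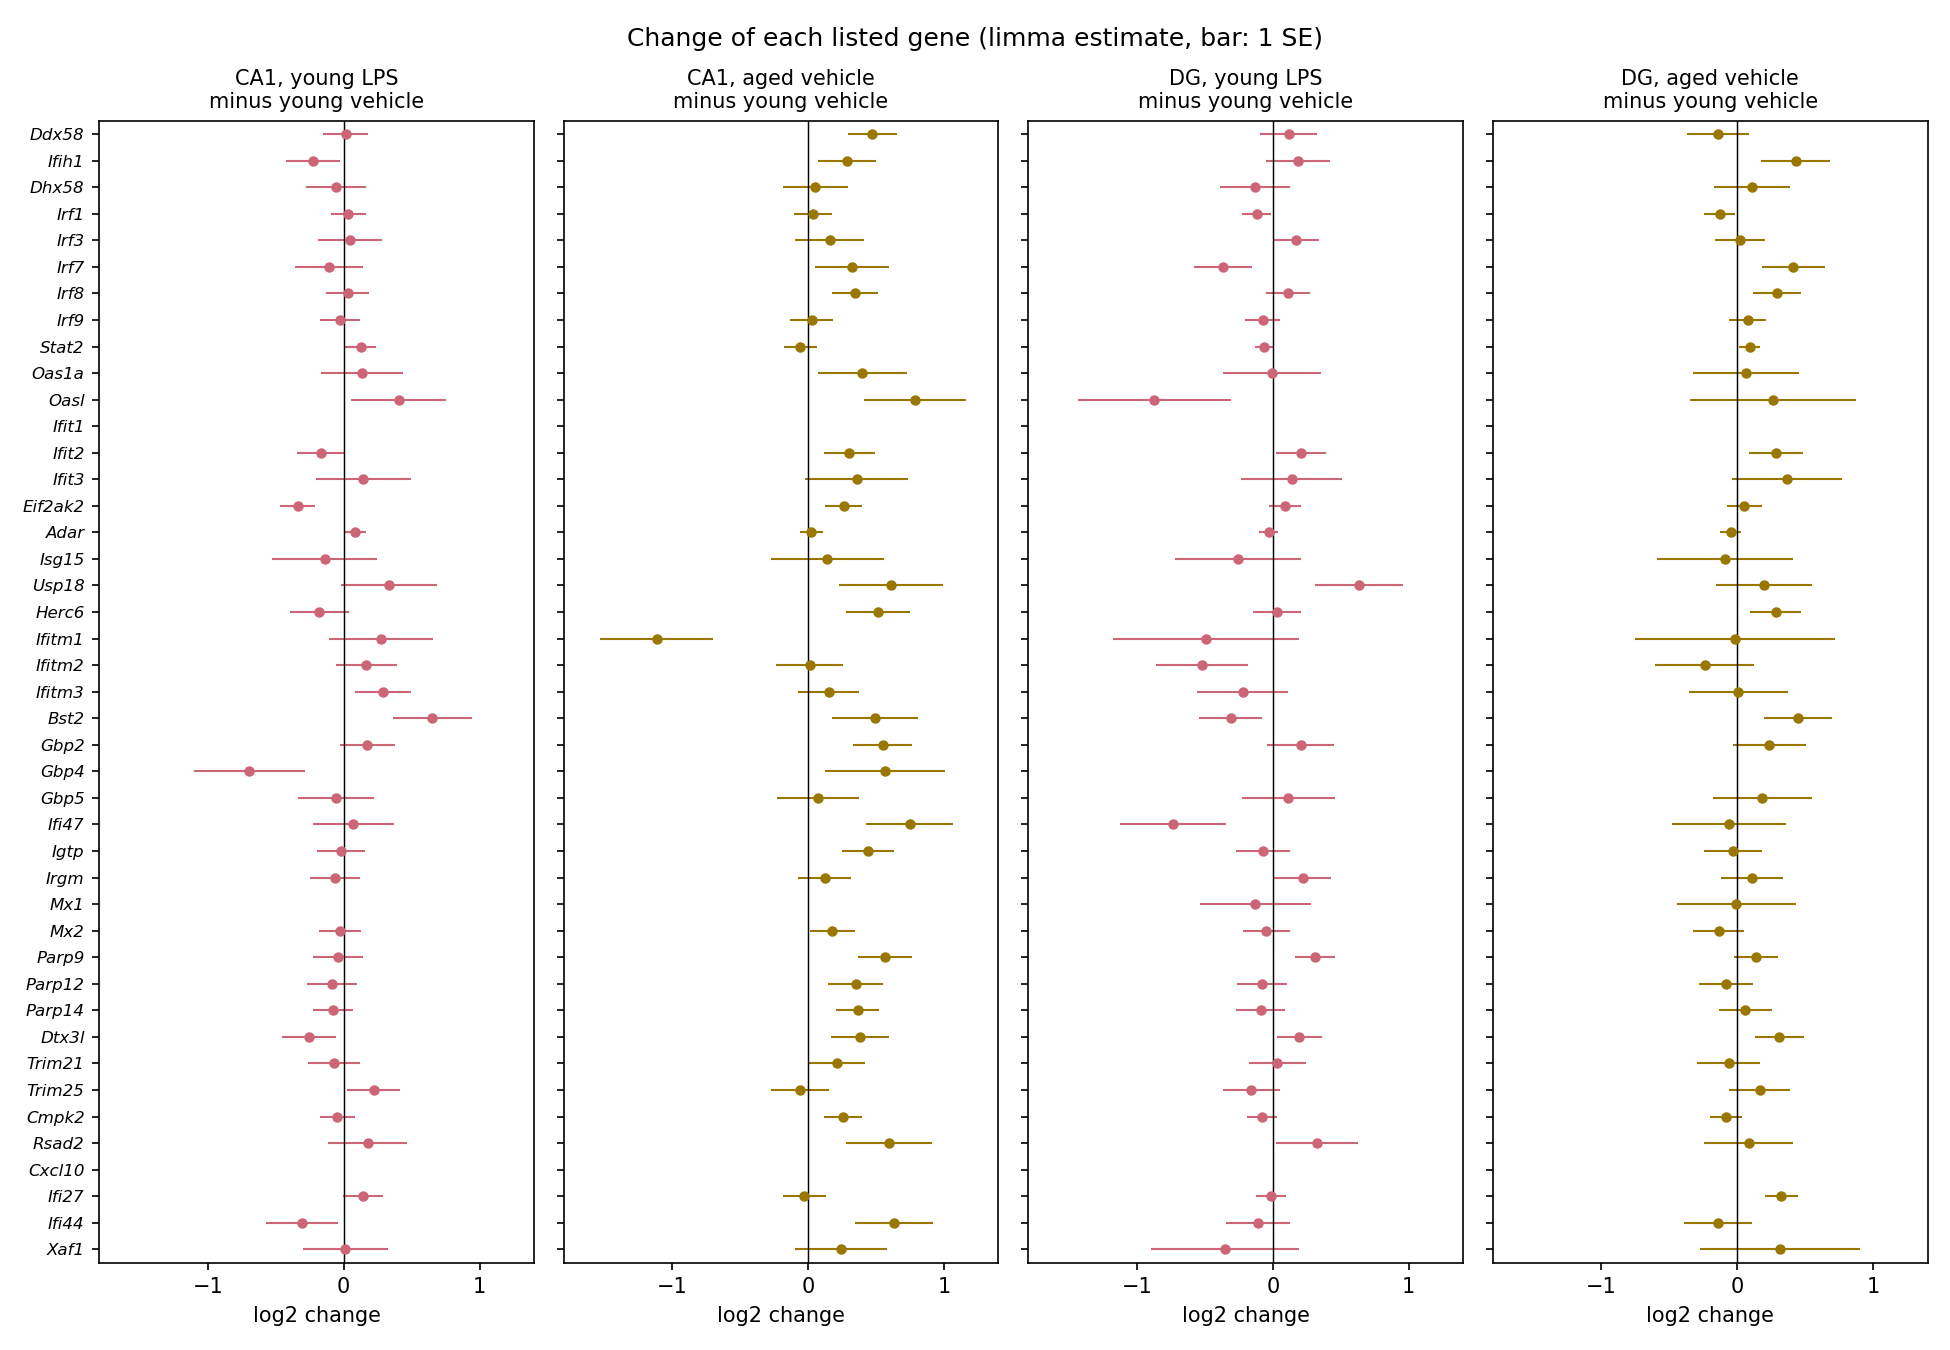
Log2 change of each listed gene for the LPS and the age comparison in CA1 and DG, as limma estimates with bars of 1 SE. Genes are ordered by role, and rows with no point were not tested; in aged CA1 36 of 40 points lie right of 0, and in the LPS panels 20 of 40 (CA1) and 16 of 40 (DG) do.

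In DG no gene of the list passed the limma test in either comparison with young vehicle, or between young LPS and aged vehicle (in each, 0.0134% of all tested genes passed). edgeR and DESeq2 also called 0 of the 40 in all 3. For LPS, 16 of 40 were positive, with a median of -0.06 beside -0.004 over all genes, and 1 of 40 had an unadjusted p below 0.05, against 7.53% of all genes. That gene was Parp9 (0.31, SE 0.15, adjusted p = 0.663, reduced set 0.43). For age, 26 of 40 were positive with a median of 0.08, but edgeR and DESeq2 gave a median of -0.03. Of the 40, 1 had an unadjusted p below 0.05, against 2.99% of all genes: Ifi27, whose product acts at membranes and in mitochondria (0.32, SE 0.12, adjusted p = 1, and 0.39 without rat 2526). Ifi27 was chosen after its values were seen, and ran from 678 to 1152 (median 799) in young vehicle and from 927 to 1185 (median 1017) in aged vehicle.

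Rat 2526 weighed on both DG comparisons. Without it the LPS median was 0.07 and the age median 0.26, with 24 and 33 of 40 positive. The shares of all genes that were positive were not computed for these fits. Oasl ran from 2.96 to 54.7 (median 7.73) in young vehicle DG and from 0 to 24.5 (median 5.52) in young LPS, a change of -0.87 (SE 0.57, adjusted p = 0.765). Ifi47 stood at -0.74 and Ifitm2 at -0.52. In the reduced set Oasl was -0.40, Ifi47 -0.44 and Ifitm2 -0.04, and with library weights they were -0.30, -0.04 and 0.01. At the other end, Usp18 ran from 11.2 to 87.5 (median 17.3) in young vehicle and from 21.1 to 58.3 (median 31.7) in young LPS. Its change was 0.63 (SE 0.33, adjusted p = 0.671), and 0.92 (unadjusted p = 0.00175, adjusted p = 0.722) without rat 2526 (reduced set 0.83). Rsad2 stood at 0.32 and Irgm at 0.22 for LPS (reduced set 0.58 and 0.47).

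In aged DG the estimates of the 40 genes ran from -0.24 to 0.45. Bst2 stood at 0.45, Ifih1 at 0.43, Irf7 at 0.41 and Ifit3 at 0.37, and in the reduced set at 0.68, 0.55, 0.65 and 0.66. Ddx58 stood at -0.14 and Ifi44 at -0.14 (reduced set 0.06 and 0.14). Irf7, the factor that amplifies interferon production, ran from 49.8 to 203 (median 77.2) in young vehicle, from 44.8 to 91.2 (median 59.7) in young LPS and from 77.5 to 162 (median 102) in aged vehicle. Its change from aged vehicle to young LPS was -0.78 (SE 0.23, adjusted p = 0.291, and 0.0261 with library weights), and it was 1 of 3 genes of the 40 lower at an unadjusted p below 0.05, against 4.51% of all genes. The other 2 were Bst2 (-0.76) and Ifi27 (-0.34). The Ifitm genes were high in DG in rats 2526, 2572 and 2532. For Ifitm3 these libraries had 182, 193 and 160, and the vehicle and aged medians were 52.2 and 67.6. The meningeal fibroblast score of those libraries was 1.71, 1.81 and 1.84, the 3 highest of 22, and its part in the Ifitm values was not tested.

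Both regions of the same rat could be compared directly, since the labels tie them to 1 hippocampus. By limma, 0 of 39 listed genes passed the test for a difference of the LPS effect between CA1 and DG, where 0.00683% of all 14637 genes passed. For the age effect, 0 of 39 passed, where 0% of all genes did. At an unadjusted p below 0.05 there were 3 of 39 for LPS, against 13% of all genes, and 4 of 39 for age, against 5.21%. The first share lies below the background. For LPS, Bst2 differed by 0.96 (SE 0.36, adjusted p = 0.354), Oasl by 1.27 (SE 0.54) and Eif2ak2 by -0.43 (SE 0.16). For age, Ifi44 differed by 0.77 (SE 0.31, adjusted p = 0.735), Ddx58 by 0.61, Igtp by 0.47 and Parp9 by 0.43, each higher in CA1. These estimates miss the threshold, which does not show that the regions respond alike.

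The genes upstream of the list were taken from a fixed list of 24 ligands, receptors, kinases, adaptors and regulators, of which 20 were tested in each region. Of the ligands, Ifng fell below the filter, and Ifnb1 and Ifna1 were not analysed here, so no interferon transcript could be followed. In aged CA1, 14 of 20 had positive values with a median of 0.09. None passed the limma test, and 3 had an unadjusted p below 0.05, a share near the 12.6% of all genes. Among them were Jak2 (0.31), a kinase bound to cytokine receptors, and Ifngr1 (0.29), which encodes a chain of the interferon gamma receptor. For LPS in CA1 and in DG, 0 of 20 had an unadjusted p below 0.05, against 6.87% and 7.53% of all genes. Between young LPS and aged vehicle in CA1, 2 of 20 passed the limma test, a share near the 8.73% of all genes. An unadjusted p below 0.05 was found for 5 of 20, where 35.8% of all genes had one. Of those past the test, Jak2 was lower in young LPS by -0.42 (adjusted p = 0.049). Without rat 2532, 0 of all genes passed in this comparison. In DG 0 of 20 passed that test and 2 had an unadjusted p below 0.05, against 9.1% of all genes. Cxcl10, a chemokine induced by interferon, had group medians of 2.77 to 5.22 normalized reads in CA1 and 3.39 to 4.41 in DG, too low to test.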

How the data were processed

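Deposited files were 1 table of normalized read counts per region, a signal that is never negative, which the authors deposited for 22 CA1 and 22 DG libraries. Per the submitters' processing notes the tools were STAR, Partek and DESeq2 and the build rn6, without versions or roles. The use of strand is not given in the sources used here. Whole reads were recovered (tolerance 0.1) from 99.78% of low values of CA1, and from 100.0% of those of DG. Rats are separate animals per the labels, which also pair the regions by rat number.

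Genes reaching 10 normalized reads in 6 or more libraries were tested with limma 3.58.1 (R 4.3.3, trend and robust) on log2(value + 1), with 1 fit per region over the 3 groups, Benjamini-Hochberg adjusted over all tested genes at 0.05. A change on this scale understates that of low genes. The region difference used limma on CA1 minus DG within each rat. edgeR 4.0.16 and DESeq2 1.42.0 on recovered reads, other pseudocounts, filters, scaling, weights, covariates and left-out libraries were alternatives. edgeR called 2144 genes between young LPS and aged CA1, and 0 to 2 in the other comparisons. The script was tested on simulated data. The members and lists were chosen with earlier results of these data known. Genes named with values were all past the threshold, the 4 largest and 2 smallest changes of each LPS and age effect, and 17 set per role. Igtp, Cmpk2, Irf8, Ifi27, and the lists of genes led by 1 rat, were named after their values were seen. Promoters are RefSeq GRCr8; no coordinates of the authors' build are used. For the upstream genes, 1 gene is not reported here by name.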

Additional observations from a re-analysis of the deposited data

Results flagged for a closer look

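In groups of 6 or 8 libraries, 35 of 159 gene and group sets had 1 library separated from the rest by a gap too wide for Dixon's 95% limit. Of these, 21 were young vehicle rat 2526, 10 in CA1 and 11 in DG. For normally distributed values chance flags about 1 in 20. Gene values were normalized reads and not log2 values, so skewed values can be flagged more often. Some genes were also named for their extreme changes, so the count of flags is a description and no test. The genes are not independent of one another.

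In CA1 of rat 2526, the highest of the 8 young vehicle libraries, these were Ddx58 at 82.6, Gbp4 at 22.1, Ifi44 at 140, Ifit3 at 53.2, Isg15 at 141, Parp9 at 189, Rsad2 at 98.2, Trim25 at 101.4 and Usp18 at 78.5 normalized reads, and the mean of the listed genes at 0.60. In DG they were Ifi44 at 175, Ifit3 at 66.7, Irf7 at 203, Irgm at 178, Isg15 at 233, Mx1 at 185, Oas1a at 85.3, Oasl at 54.7, Parp14 at 249.3, Rsad2 at 80.9 and Usp18 at 87.5.

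In aged CA1, rat 2532 was apart as the highest for Ifi44 at 225, Ifih1 at 104, Irf7 at 198 and Isg15 at 77.3, and as the lowest for Stat2 at 443 and Trim25 at 26.2. Rat 2420 was apart as the highest for Gbp2 at 170. In aged DG, rat 2532 was apart for Ifitm1 at 33.3 and Ifitm2 at 154, and rat 2412 for Rsad2 at 48.1. Among young rats, the lowest values were Ifitm2 at 30.9 in vehicle CA1 of rat 2410 and Trim25 at 49.1 in LPS CA1 of rat 2547. The highest were Ddx58 at 89.3 in LPS DG of rat 2543 and Oasl at 24.5 in LPS DG of rat 2573.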

How the results depend on the processing

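The counts of listed genes past the threshold were 0 under every alternative run for the LPS effect in CA1 and DG and the age effect in DG. For age in CA1, library weights gave 3. Young LPS against aged vehicle in CA1, with 3 calls in the report, was the comparison that depended on the settings. It gave 0 with no filter, with only the 2 groups compared, with the dissection score and with the choroid plexus score in the fit. DESeq2 gave 7, where it called 22.1% of all genes, and edgeR gave 8, where it called 14.4%. A mean of at least 50 gave 5, the number series of the rats 7 and library weights 9. For those 3 settings no share over all genes is given here, so their counts are not read as a result about the list. Leaving out 1 library gave 0 to 8, and leaving out rats 2526, 2420 and 2532 together, or 2526 and 2532, gave 0 (both chosen after seeing the data). In DG that comparison gave 2 with library weights, again with no share over all genes given here, so this count is not read as a result either. The cause was not tested. Age medians in CA1 ran from 0.23 to 0.39. In DG the age median was -0.03 with edgeR and DESeq2. For the region differences, the fit with no replicate block gave 0 calls for LPS and 0 for age, with medians of 0.02 and 0.17, and changed no call. At levels of a few reads (Ifitm1, Gbp4, Oasl, Cxcl10) depth limits precision.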
